A study of Mus musculus with 2 samples.

Results

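Macrophage nuclei of mouse CIC::DUX4 sarcomas were examined by single-nucleus RNA sequencing. They were chosen by the measured values of 18 genes. In nuclei with at least 1000 unique molecular identifiers (UMIs, 1 per captured RNA molecule) and under 5% mitochondrial UMIs, a macrophage sum added the UMIs of Csf1r, Adgre1, Ptprc, Cd68, Mrc1, Cd163, F13a1, C1qa and Dab2 per 10000 UMIs. An osteoclast sum did the same for Atp6v0d2, Nyap2, St18, Slc9b2, Acp5, Ctsk, Ocstamp, Dcstamp and Mmp9. A nucleus was taken as a macrophage nucleus with a macrophage sum of at least 20, at least 3 of the 9 macrophage genes detected and an osteoclast sum under 20. The rule found 1281 macrophage nuclei among 60121 nuclei within the UMI and mitochondrial limits, or 2.13%, and 72338 nuclei were deposited in all.

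The dFLEx CDS mouse carries a CIC::DUX4 allele that is switched on in cells that receive both Cre and FLPE recombinase, here from plasmids with the ubiquitous CAG promoter, electroporated into hind limb muscle. The allele lies at Rosa26. CIC::DUX4 is the fusion transcription factor that drives CIC-rearranged sarcoma. The untreated group held 4 tumors, labelled dFLEx CDS +/- and no treatment. The Minnelide group held 4 dFLEx CDS tumors treated with Minnelide at 0.42 mg/kg over 21 days, by daily intraperitoneal injection from the time the tumor could be felt. In the body Minnelide releases triptolide, which binds the XPB helicase of the general transcription factor TFIIH. The tumors of the Minnelide group were picked for a good or a poor response, which the labels do not give per tumor. Words on response in the names of the deposited matrices were not used. The group is therefore mixed, with both kinds of response pooled. The labels gave neither a genotype for the Minnelide group nor an age for either group. The mice kept their own immune system, so the macrophages were those of the host, and nothing in the labels says which tumors came from which animals. P-values therefore measure the spread between these tumors.

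Macrophages are phagocytes that arise from embryonic precursors or from blood monocytes and take up dying cells, lipid and iron. Their survival depends on the CSF1 receptor, encoded by Csf1r, which binds CSF1 and IL-34. In muscle, resident macrophages lie between the fibers, and monocyte-derived cells join them after injury. Osteoclasts are multinucleate cells of the same lineage that resorb bone.

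Total UMIs per tumor ran from 18487409 to 73211599, and the macrophage nuclei of a tumor contributed 65823 to 3511384 UMIs. A total of 49 to 132 cell barcodes were shared in each of 4 of the 28 pairs of tumors, each time between an untreated tumor and a Minnelide tumor. Of the macrophage nuclei, 19 carried a barcode that occurred in another tumor, and 0 barcodes belonged to a macrophage nucleus in both. The labels place all untreated tumors in one sample and all Minnelide tumors in another, so whatever the preparation of a sample shares and the treatment cannot be told apart. Untreated tumor 1 stood apart from the others, with 703 of the 1281 macrophage nuclei, or 54.9%.

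The macrophage sum chose the nuclei, and its values are a description. Its median over the macrophage nuclei was 41.3 per 10000 UMIs, with quartiles of 27.4 and 74.7 and a highest value of 491.5. A total of 659 nuclei had a sum of at least 40 and 216 a sum of at least 100. Just inside the threshold, 235 nuclei lay between 20 and 25, the lowest at 20.02. Just outside it, 401 nuclei lay between 15 and 20 and met the other criteria, the highest at 19.97. Another 342 nuclei reached the sum with fewer than 3 of its genes, and 298 met the macrophage criteria but had an osteoclast sum of 20 or more.

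Markers of 12 cell classes were set beside each other as mean UMIs per 10000 UMIs in each tumor. The 6 macrophage markers Csf1r, Adgre1, Mrc1, F13a1, Dock2 and Ptprc summed to between 38.5 and 61.9 in macrophage nuclei and to between 0.894 and 4.11 in the other nuclei, which lay under both thresholds. As 5 of these markers belong to the rule, their sum was fixed by it and checks nothing. Dock2, the one marker outside the rule, ranged from 602 to 1459 CPM (UMIs per 1000000) in macrophage nuclei and from 18.2 to 159 CPM in the other nuclei. T and NK cell markers summed to at most 1.52, neutrophil markers to at most 0.702 and dendritic cell markers to at most 1.81 in the macrophage nuclei of any tumor. Mast cell markers summed to at most 2.07 and B cell markers to between 2.83 and 10.3. The median ratio to the other nuclei was 0.536 for T and NK, 17.1 for neutrophil and 0.841 for dendritic cell markers. It was 0.706 for mast and 0.472 for B cell markers. Some of these sums rested mostly on a single gene. In macrophage nuclei Csf3r held 194 UMIs, and the next neutrophil marker, Cxcr2, held 7. Ebf1 held 3742 UMIs and the next B cell marker, Pax5, held 71. Kit held 922 UMIs and the next mast cell marker, Cpa3, held 7. The sums of these classes are therefore no measure of such cells.

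Transcripts of other cells were also present. The 8 tumor markers, among them Etv1 and Etv4, summed to between 53.0 and 127 per 10000 UMIs in macrophage nuclei, and the ratio to the other nuclei of the same tumor had a median of 0.640 and ran from 0.470 to 1.015. In 776 of the 1281 nuclei the tumor marker sum was above the macrophage sum of the rule, with at least 3 tumor markers detected. The same was so for myocyte markers in 559 nuclei, fibroblast markers in 365 and endothelial markers in 146, and 979 nuclei had at least 1 other class above the macrophage sum. The median tumor marker sum was 91.5 in the 404 nuclei with a macrophage sum of 20 to 30 and 33.7 in the 216 nuclei with a sum of 100 or more. Fibroblast markers had a median ratio of 1.04 and skeletal myocyte markers a median ratio of 0.512. Counts of these nuclei thus held macrophage transcripts together with those of tumor, muscle, fibroblast and endothelial cells. The part of free RNA or of joined nuclei in this was not tested.

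**Figure D1:**
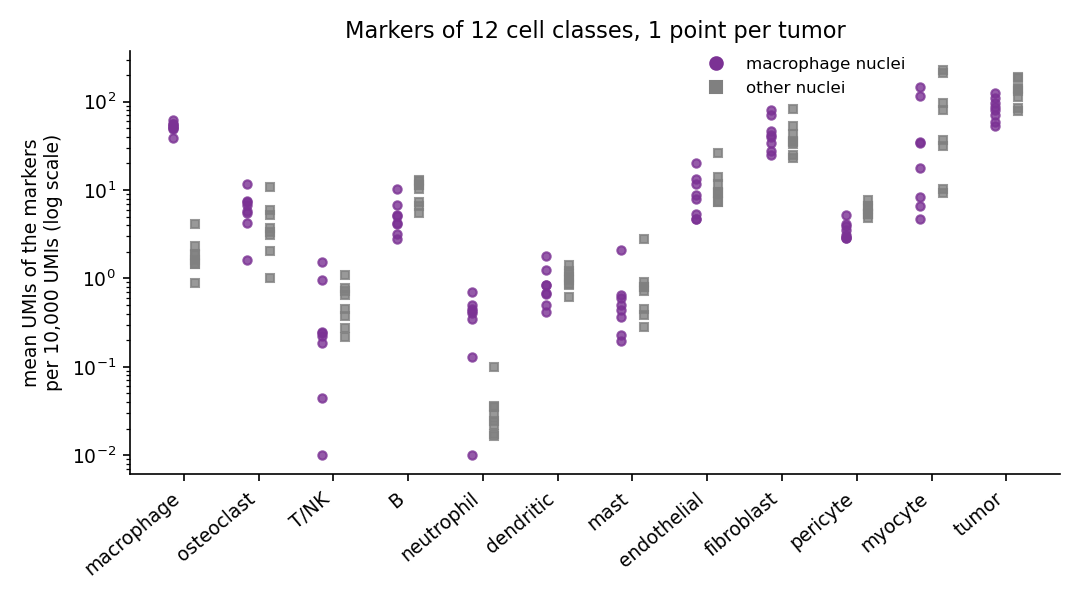
Mean UMIs per 10,000 UMIs (log scale) of the markers of 12 cell classes in macrophage nuclei (circles) and in the other nuclei (squares), 1 point per tumor; a mean of 0 is drawn at the lower end of the axis. Macrophage markers lie at 38.5 to 61.9 in macrophage nuclei, while tumor markers in the same nuclei lie at 53.0 to 127.

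The share of macrophage nuclei did not separate the groups. It was 7.43% of 9464 nuclei in untreated tumor 1 (exact 95% binomial interval 6.91 to 7.97), 1.04% of 5273 in untreated tumor 2 (0.787 to 1.36), 0.919% of 6530 in untreated tumor 3 (0.702 to 1.18) and 0.714% of 5185 in untreated tumor 4 (0.503 to 0.982). It was 1.07% of 11449 nuclei in Minnelide tumor 1 (0.894 to 1.28), 2.25% of 7544 in Minnelide tumor 2 (1.93 to 2.61), 0.997% of 9830 in Minnelide tumor 3 (0.810 to 1.21) and 0.722% of 4846 in Minnelide tumor 4 (0.504 to 1.00). These intervals cover counting error only. The groups overlapped, and 6 of the 8 tumors lay between 0.714% and 1.07%.

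The mean share was 2.53% ± 3.27 (SD, n = 4) in untreated tumors and 1.26% ± 0.678 (SD, n = 4) in Minnelide tumors, and the two-sided exact permutation p was 0.83, where the smallest p that 4 against 4 tumors allow is 0.0286. Without untreated tumor 1 the difference changed sign, from -1.26 to 0.370 percentage points, where the exact permutation p was 0.4. A share counts nuclei, so that fewer macrophages and more nuclei of other kinds cannot be told apart.

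**Figure D2:**
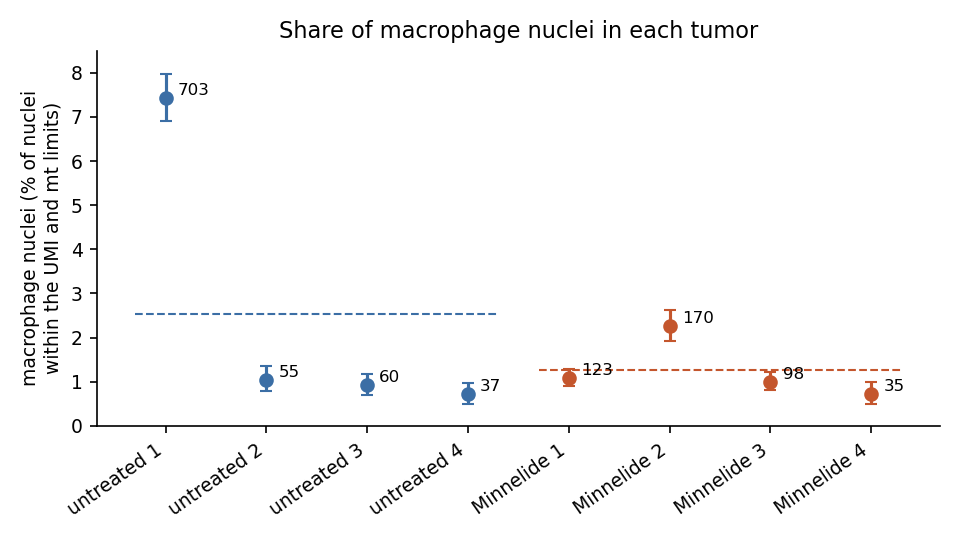
Macrophage nuclei as a percent of the nuclei within the UMI and mitochondrial limits in each tumor, with exact 95% binomial intervals; numbers give the macrophage nuclei and dashed lines the group means. Untreated tumor 1 lies at 7.43%, and the other 7 tumors lie between 0.714% and 2.25%.

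Depth and complexity of the macrophage nuclei overlapped between the groups. Median UMIs per macrophage nucleus were 3540, 3724, 2453 and 1500 in untreated tumors 1 to 4 and 3644, 2373, 2805 and 2869 in Minnelide tumors 1 to 4. They averaged 2804 ± 1035 in untreated and 2923 ± 529 in Minnelide tumors (SD over 4 tumors each), a difference whose exact permutation p was 0.8. After every nucleus was thinned to 1000 UMIs, macrophage nuclei held a median of 779.5 to 811 genes per tumor, and the averages of untreated and Minnelide tumors were 799 ± 8.96 and 798 ± 12.1 genes (SD over 4 tumors each, exact permutation p = 0.943). The other nuclei held medians of 745 to 794 genes at the same depth.

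The genes of the rule came first, and their levels are a description since they chose the nuclei. Levels are given in CPM, a gene's UMIs per 1000000 UMIs of all macrophage nuclei of a tumor. F13a1, the A subunit of coagulation factor XIII and a gene of resident and monocyte-derived macrophages, stood at 2563, 1364, 1083 and 2264 CPM in untreated tumors and at 1738, 2196, 1099 and 735 CPM in Minnelide tumors. Its median was 90.7 times that of the other nuclei, and its groups overlapped.

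Mrc1, the mannose receptor CD206, stood at 1438, 1247, 1589 and 1550 CPM in untreated tumors and at 1227, 1417, 1034 and 934 CPM in Minnelide tumors. Csf1r ranged from 129 to 312 CPM, Adgre1, which encodes F4/80, from 164 to 535 CPM, and Ptprc, the pan-leukocyte phosphatase CD45, from 430 to 1102 CPM. Dab2, an endocytic adaptor, ranged from 654 to 1153 CPM. In each of these genes both groups overlapped and all 8 tumors had a higher level in macrophage nuclei than in the other nuclei. The other nuclei leave out osteoclast-rule nuclei, which had an osteoclast sum of at least 20 and at least 3 of its genes detected. Csf1r had a median of 194 CPM in macrophage nuclei and 298 CPM in osteoclast-rule nuclei.

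The remaining genes of the macrophage sum varied more between tumors. Cd163, the hemoglobin scavenger receptor, stood at 143, 28.0, 17.7 and 243 CPM in untreated tumors and at 139, 206, 32.3 and 25.9 CPM in Minnelide tumors. It was high in 2 tumors of each group and low in the other 2. C1qa, a chain of complement C1q, ranged from 40.4 to 333 CPM and Cd68, a lysosomal glycoprotein, from 14.1 to 70.6 CPM.

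Of the 9 osteoclast genes, St18, which encodes a zinc finger transcription factor, was the one that stayed above the other nuclei in every tumor, at 62.6 to 318 CPM and a median of 13.2 times the other nuclei. Atp6v0d2, a subunit of the vacuolar proton pump, ranged from 11.8 to 32.7 CPM with a median of 1.5 times the other nuclei. The protease gene Ctsk and the phosphatase gene Acp5 had medians of 1.12 and 1.0 times the other nuclei. Mmp9, a matrix protease, ranged from 0 to 187 CPM, and Nyap2, Slc9b2, Ocstamp and Dcstamp each reached at most 37.4 CPM.

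After thinning to 1000 UMIs, F13a1 was detected in 34.3% to 81.1% of the macrophage nuclei of a tumor, against 0.758% to 6.0% of the other nuclei. Mrc1 was detected in 40% to 64.3% against 2.86% to 10.3%, and Dab2 in 46.1% to 62.9% against 4.02% to 8.31%. Csf1r was detected in 15.4% to 23.6% of macrophage nuclei against 0.813% to 2.57% of the others. At this depth single genes were missed in many nuclei that the sum selected.

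Outside the rule, 20 leading genes were taken by their median ratio to the other nuclei. All 20 were higher in macrophage nuclei in 8 of 8 tumors, with medians 18.6 to 57.1 times those of the other nuclei. Among the 2708 genes at 50 CPM or more in the macrophage nuclei of every tumor, 333 (12.3%) had a median level at least 2-fold that of the other nuclei on the scale of CPM plus 10. Among all 15013 genes with a UMI in macrophage nuclei, 4.82% had a median log2 ratio of 1 or more on that scale. The nuclei were split by genes of the same cells, so this contrast was not tested.

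Dock2, the activator of the GTPase Rac that drives leukocyte migration, led with a median log2 ratio of 4.53. It stood at 836, 999.8, 1459 and 714 CPM in untreated tumors and at 813, 602, 1221 and 900 CPM in Minnelide tumors, against a median of 28.9 CPM in the other nuclei. The levels of the groups overlapped. Aoah, which removes fatty acids from bacterial lipopolysaccharide, followed with a median log2 ratio of 4.32, and Fyb, an adaptor of immune receptor signaling, had 4.15.

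Other leading genes fell into known myeloid functions. Myo1f, a myosin of immune cells, Arhgap15, a regulator of Rac, and Plek, a substrate of protein kinase C, belong to signaling and cell shape. Tbxas1 and Hpgds encode synthases of thromboxane and prostaglandin D2, and their medians were 48.0 and 28.5 times those of the other nuclei. March1, a ubiquitin ligase that removes MHC class II from the surface, and Ctss, the protease that trims the invariant chain, belong to antigen presentation. Fcgr2b is the inhibitory Fc receptor, Cd84 a receptor of the SLAM family, and Ly86 the partner of the receptor RP105. Ms4a7 and Ms4a4a are membrane proteins of macrophages. Kcnk13, a potassium channel, had the highest ratio of medians, 57.1. Slc9a9, an endosomal proton exchanger, Adap2, Cacna1d and Epsti1 completed the list. Osteoclast-rule nuclei shared part of the level of Cd84, with a median of 128 CPM against 231 CPM in macrophage nuclei. Myo1f had 153 against 373 CPM. The other leading genes had medians of at most 90.1 CPM in osteoclast-rule nuclei.

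In all 20 genes the ratio was lowest in untreated tumor 1, where the log2 ratios were still at least 1.70. The genes lowest in macrophage nuclei relative to the others were Dmd, Trdn, Pdlim3, Ank3, Edil3, Adcy2, Brinp3, Clstn2, Neb and Kcnq5. Dmd, which encodes dystrophin, had medians of 198 CPM in macrophage and 1183 CPM in the other nuclei, and Neb, which encodes nebulin, had 306 and 891 CPM. Adcy2 and Kcnq5 had ratios of medians of 0.305 and 0.395, and each was lower in macrophage nuclei in all 8 tumors.

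**Figure D3:**
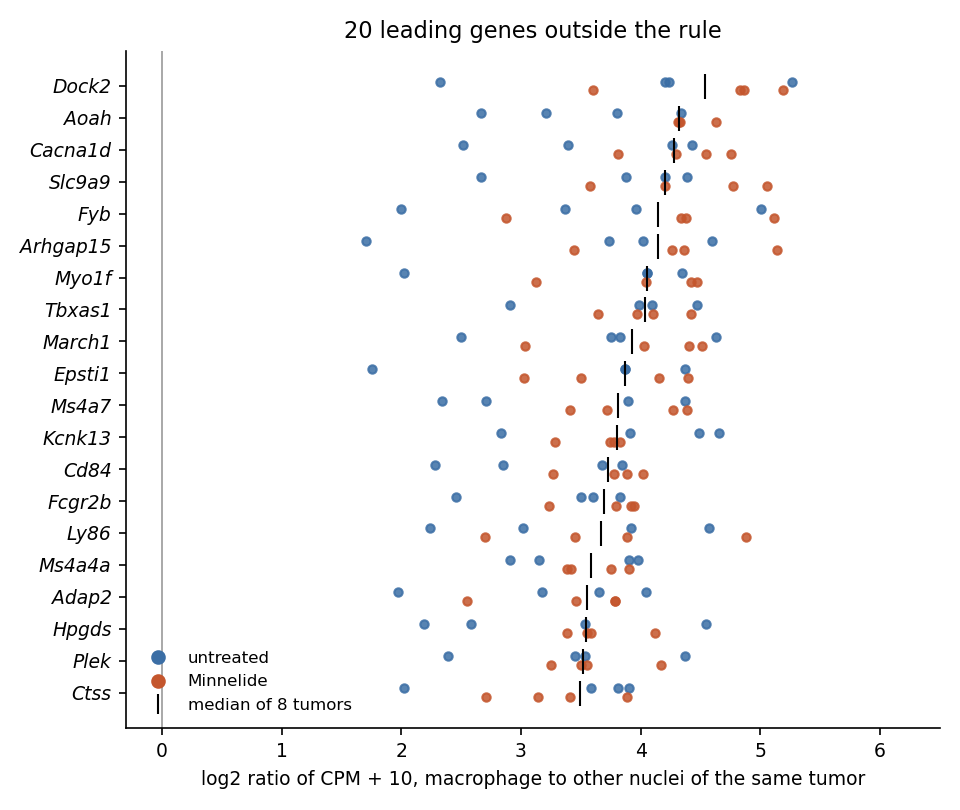
Log2 ratio of CPM plus 10 in macrophage nuclei to that in the other nuclei of the same tumor for the 20 leading genes outside the rule, 1 point per tumor and a bar at the median. Points of untreated and Minnelide tumors overlap in each gene, and none lies under 1.70.

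Promoter sequence of the leading genes is shown because the genes are high together in these nuclei. RefSeq promoters (build GRCm38.p6) were found for 19 of the 20 genes. The 250 bases before each start were searched on both strands for GAGGAA, the core letters bound by PU.1 and other ETS family factors, whose reverse complement is TTCCTC. They occurred in 7 of the 19 genes (36.8%), against 25.9% of 27025 genes with a RefSeq promoter. A second match in Dock2 is not printed. Windows of 60 bases, 5′ to 3′ on the strand of the gene with the matching letters in capitals, are given for 4 of the 7.
Dock2, chr11:34784037-34784096, minus strand: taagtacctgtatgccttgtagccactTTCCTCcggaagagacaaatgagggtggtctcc
Tbxas1, chr6:38918926-38918985, plus strand: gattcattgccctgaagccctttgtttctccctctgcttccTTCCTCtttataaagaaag
Hpgds, chr6:65144747-65144806, minus strand: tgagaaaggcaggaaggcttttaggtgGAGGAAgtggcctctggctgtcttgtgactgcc
Ctss, chr3:95526595-95526654, plus strand: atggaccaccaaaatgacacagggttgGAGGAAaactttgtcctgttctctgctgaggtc
The other 3 were Fyb, Kcnk13 and Plek. A match describes the letters and not a bound site.

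Whole lists of genes with known functions were described by the same contrast. They share members with the leading genes, such as Dock2, Fcgr2b and Ctss, and are no separate check of it. Of 15013 genes with a UMI in macrophage nuclei, 8.37% were higher in macrophage than in other nuclei in every tumor. Among receptors and signaling genes of myeloid cells, 16 of 19 were, and the summed level of the list had a median of 11.9 times that of the other nuclei. Complement and Fc receptor genes had 10 of 14 and 15.1 times, and chemokines and their receptors 6 of 18 and 11.2 times. MHC class II presentation had 7 of 14 and 8.14 times. Against osteoclast-rule nuclei the summed levels of these lists had medians of 1.99, 6.94, 3.29 and 5.49 times, in the same order.

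The excess was smaller in lists of metabolic and regulatory genes. Myeloid transcription factors had 10 of 20 genes higher in every tumor and a median summed level 3.77 times that of the other nuclei. Zeb2, a repressor that maintains macrophage identity, ranged from 2346 to 4284 CPM, against a median of 472 CPM elsewhere, and Mitf, a regulator of lysosome genes, from 552 to 1215 CPM. Iron and heme handling had 5 of 9 genes and 3.78 times, lysosome genes 11 of 15 and 2.31 times, and lipid-associated macrophage genes 5 of 15 and 2.79 times. Immune checkpoint genes had 9 of 12 and 2.98 times, and interferon response genes 9 of 23 and 2.35 times. Against osteoclast-rule nuclei the median was 0.873 times for iron and heme handling, 1.11 for lysosome and 0.808 for checkpoint genes. It was 1.78 for myeloid transcription factors, 2.31 for lipid-associated and 2.01 for interferon genes. Mitf had medians of 741 CPM in macrophage and 647 CPM in osteoclast-rule nuclei.

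Further lists had summed levels under 2 times those of the other nuclei. Inflammatory cytokines and NF-kB feedback genes had 1.87 times (5 of 18 genes higher in every tumor), IL-4 response genes 1.94 times (1 of 12) and resident macrophage genes 1.96 times (6 of 15). Against osteoclast-rule nuclei the medians of these lists were 0.891, 2.00 and 2.30 times. The highest levels in the resident list were those of Gas6 and Colec12, with medians of 1.58 and 0.977 times the other nuclei. Stab1 and Selenop of the same list had 9.14 and 6.29 times. Apoptotic cell clearance and scavenger receptors had 1.49 times (4 of 16), growth and angiogenic factors 1.30 times (3 of 14), matrix proteases and inhibitors 1.42 times (5 of 12) and immediate early genes 1.80 times (5 of 17). Monocyte genes had 0.882 times (3 of 13), a list led by the matrix genes Vcan and Fn1, which the tumor also expresses. Cell cycle genes had 0.865 times, RNA polymerase II and TFIIH subunits 0.948 times and CIC::DUX4 activity genes 0.652 times, and in these 3 lists 0 genes were higher in every tumor.

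Among single receptors and their kinases, Lilrb4a, an inhibitory receptor, had a median of 36.5 times the other nuclei and Btk, a kinase of immune receptors, 30.4 times. Itgam, which encodes CD11b, had 26.3 times, Cd86, a costimulatory ligand, 27.8 times and Msr1, a scavenger receptor, 21.8 times. Each of these was higher in macrophage nuclei than in the other nuclei in 8 of 8 tumors. Against osteoclast-rule nuclei the excess was smaller for some. Msr1 had medians of 185 CPM in macrophage and 121 CPM in osteoclast-rule nuclei, and Btk 78.4 and 47.2 CPM. Itgam had 143 and 39.7 CPM, Lilrb4a 154 and 21.0 CPM and Cd86 181 and 14.2 CPM. Reads of Lilrb4a could be split with near-identical copies, which makes its level uncertain.

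The ligands of Csf1r were measured in the other nuclei. Csf1 averaged 57.4 ± 17.6 CPM in the other nuclei of untreated tumors and 19.9 ± 1.21 CPM in those of Minnelide tumors (SD, n = 4 each). Il34 averaged 9.85 ± 5.05 and 3.85 ± 2.03 CPM. These values are given beside the receptor, whose level in macrophage nuclei averaged 223 ± 64.0 and 179 ± 65.9 CPM with overlapping groups.

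The comparison of Minnelide with untreated tumors asked which genes differ within the macrophage nuclei. UMIs were summed per tumor and tested with edgeR's quasi-likelihood test. At a Benjamini-Hochberg adjusted p under 0.05, 0 of 5410 genes (0%) passed in edgeR. An unadjusted p under 0.05 was reached by 405 genes (7.49%), of which 229 (4.23%) had a higher and 176 (3.25%) a lower level with Minnelide. DESeq2 called 3 of 5400 genes (0.0556%). The smallest adjusted p in edgeR was 0.287, and the genes below are therefore given by their values. The UMIs behind this test were few in some tumors, with 37 nuclei in untreated tumor 4 and 35 in Minnelide tumor 4. In simulated counts the test called 20 of 200 genes changed 2-fold (10%), so most changes of that size would be missed.

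Genes of smallest p with a lower level in Minnelide tumors included Maf, Blvrb, Btg2, Spsb1, Tiparp, Trim12a, Vcam1, Abcc3 and Cyb5a. These 9 had a higher level in macrophage than in the other nuclei by the median over tumors, and 6 had groups that did not overlap. Of all genes tested, 3.79% had groups that did not overlap, 2.22% with Minnelide lower and 1.57% with Minnelide higher. The adjusted p of the 9 genes was 0.627 in edgeR.

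Maf, a transcription factor of differentiated macrophages (chromosome 8, 116409632 to 116434579 on the minus strand in GRCm39), stood at 349, 257, 394 and 228 CPM in untreated tumors and at 161, 147, 207 and 147 CPM in Minnelide tumors. All untreated tumors lay above all Minnelide tumors, with a log2 difference of -0.88 ± 0.22 (SE, edgeR) and an adjusted p of 0.627. Without untreated tumor 1 it was -0.80, and in nuclei with a macrophage sum of at least 40 it was -1.01. In the other nuclei Maf averaged 80.1 and 33.8 CPM with overlapping groups, and the interaction was 0.48 ± 0.41 on the log2 scale (SE, edgeR, adjusted p of 1).

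Blvrb, a biliverdin reductase of heme breakdown, stood at 94.3, 74.7, 100 and 60.8 CPM in untreated tumors and at 43.7, 30.3, 38.8 and 51.9 CPM in Minnelide tumors. The log2 difference was -1.09 ± 0.27 (SE, edgeR), also with an adjusted p of 0.627 and without overlap. Blvrb held 331, 16, 17 and 4 UMIs in untreated tumors and 23, 15, 12 and 6 in Minnelide tumors.

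Vcam1, a vascular adhesion molecule that iron-recycling macrophages also carry, had the largest difference among them. It stood at 369, 84.1, 165 and 30.4 CPM in untreated tumors and at 17.1, 14.1, 74.3 and 17.3 CPM in Minnelide tumors. Its groups overlapped, the log2 difference was -2.58 ± 0.69 (SE, edgeR, adjusted p of 0.627), and without untreated tumor 1 it was -1.71. The remaining members were Abcc3, an organic anion exporter, at 66.9 ± 15.4 and 25.8 ± 11.9 CPM (SD, n = 4 each), and the antiviral gene Trim12a at 73.4 ± 23.1 and 30.4 ± 9.82 CPM, with a near-identical copy that could share its reads. Neither of these had overlapping groups, and those of Abcc3 did not overlap in the other nuclei either, at 16.9 ± 16.8 and 4.25 ± 0.538 CPM. In macrophage nuclei of Minnelide tumors Abcc3 held 15, 5, 12 and 3 UMIs and Trim12a 13, 10, 13 and 4. Btg2, an immediate early antiproliferative gene, Tiparp, a target of the aryl hydrocarbon receptor, and Spsb1 had log2 differences of -1.60, -1.19 and -1.31, and Cyb5a, a cytochrome, had -1.29. Without untreated tumor 1 the difference of Btg2 was -1.02. In nuclei with a macrophage sum of at least 40, the groups of Spsb1, Tiparp, Trim12a and Abcc3 overlapped.

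The 10 genes of smallest p with a higher level in Minnelide tumors were Mdk, Ltbp1, Bcl11a, Cenpa, Adgrl1, Mettl9, Ptchd4, Adcy2, Matn2 and Trim9. In all 10 the groups did not overlap, but in nuclei with a macrophage sum of at least 40 those of Ltbp1, Bcl11a, Adgrl1, Ptchd4, Adcy2 and Matn2 did. Some of the levels rested on few UMIs. In untreated tumors 2, 3 and 4 Cenpa held 3, 5 and 1 UMIs and Bcl11a 7, 5 and 4. Unlike the genes above, 9 of these 10 had a lower level in macrophage than in the other nuclei. DESeq2 called Mdk (adjusted p 0.00245), Ltbp1 (0.0107) and Ptchd4 (0.0377).

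Mdk, which encodes the growth factor midkine (chromosome 2, 91760143 to 91762846 on the minus strand in GRCm39), stood at 14, 23.4, 17.7 and 15.2 CPM in untreated tumors and at 148, 52.5, 129 and 77.8 CPM in Minnelide tumors. Every Minnelide tumor lay above every untreated tumor, with a log2 difference of 2.66 ± 0.41 (SE, edgeR, adjusted p of 0.287). Mdk held only 49, 5, 3 and 1 UMIs in untreated tumors and 78, 26, 40 and 9 in Minnelide tumors. In the other nuclei it averaged 18.9 CPM in untreated and 80.6 CPM in Minnelide tumors, again without overlap, and the interaction was 0.09 ± 0.36 on the log2 scale (SE, edgeR, adjusted p of 1).

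Ltbp1, which binds latent TGF-beta in the matrix, stood at 31.3, 23.4, 58.8 and 15.2 CPM in untreated tumors and at 96.8, 123, 220 and 112 CPM in Minnelide tumors. Ltbp1 held 110, 5, 10 and 1 UMIs in untreated tumors and 51, 61, 68 and 13 in Minnelide tumors. In the other nuclei it averaged 158 and 154 CPM with overlapping groups. The interaction was 1.33 ± 0.39 on the log2 scale (SE, edgeR, adjusted p of 1). Ptchd4 averaged 51.5 ± 32.3 and 203 ± 93.1 CPM in macrophage nuclei (SD, n = 4 each) and 126 and 404 CPM in the other nuclei.

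**Figure D4:**
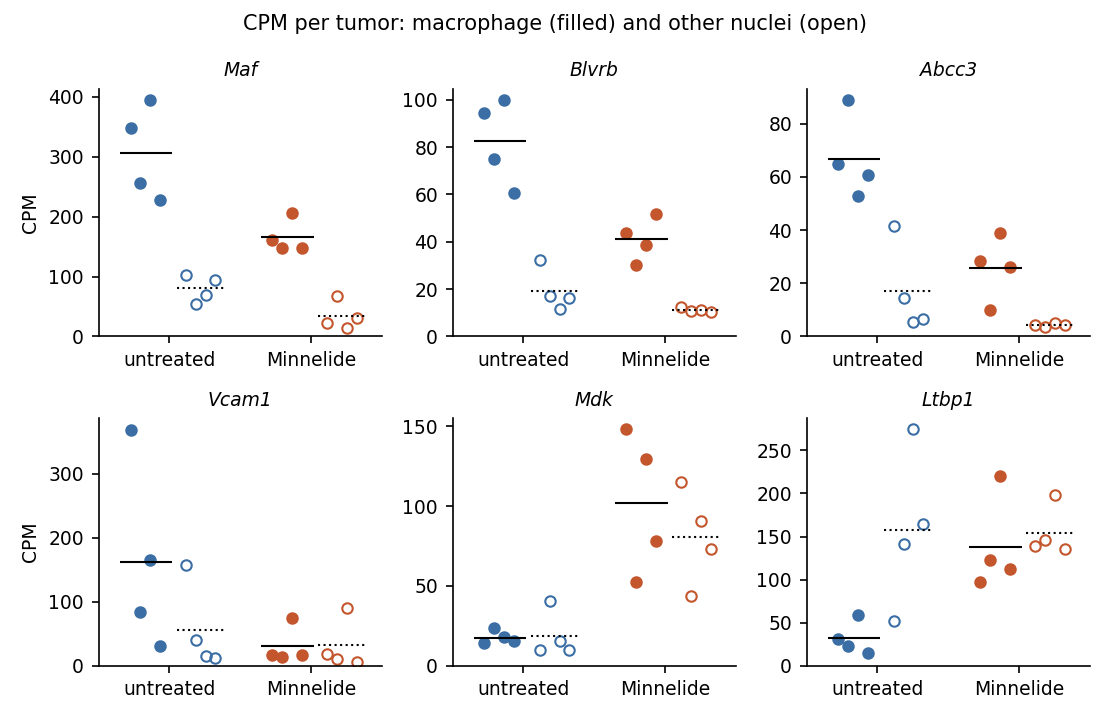
CPM of 6 genes in macrophage nuclei (filled, solid line at the mean) and other nuclei (open, dotted line at the mean) of each tumor. Maf, Blvrb and Abcc3 lie lower in all Minnelide than in all untreated tumors in macrophage nuclei, as does Abcc3 in the other nuclei, Mdk lies higher in both kinds of nuclei, and Ltbp1 lies higher in macrophage nuclei with overlapping groups in the other nuclei.

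The direction of all genes tested went with their level in macrophage nuclei. Of 564 genes at least 2-fold higher in macrophage than in other nuclei, 499 (88.5%) had a lower level with Minnelide, with a median log2 difference of -0.35. Of 97 genes at least 2-fold lower in macrophage nuclei, 86 had a higher level with Minnelide, with a median of 0.75. The 4737 genes between had a median of 0.00. Without untreated tumor 1 the medians of the higher and the lower genes were -0.40 and 0.69, in nuclei with a macrophage sum of at least 40 they were -0.25 and 0.72, and without nuclei that also held a second class they were -0.17 and 0.75. Relative to the other nuclei, the median interaction was 0.38 for the higher and 0.26 for the lower genes, so that for the higher genes it had the opposite sign. No test across genes was made, since genes are not replicates.

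Marker sums of the groups overlapped. The tumor marker sum in macrophage nuclei averaged 70.1 ± 19.5 per 10000 UMIs in untreated and 101.5 ± 21.6 in Minnelide tumors (SD, n = 4 each), with ranges of 53.0 to 97.4 and 80.4 to 127. The macrophage marker sum averaged 55.5 ± 4.92 and 49.0 ± 7.52, with ranges of 50.2 to 61.9 and 38.5 to 56.3, and consists mostly of genes of the rule. In the other nuclei the tumor marker sum averaged 115 ± 26.3 and 150 ± 47.7. The part of these sums in the differences between the groups was not tested.

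The lists were described by their counts and medians beside the median of all genes tested outside the rule, -0.03 on the log2 scale, where 2909 of 5398 genes had a lower level with Minnelide. Among the genes at least 2-fold higher in macrophage nuclei that share was 88.5%. In each list 0 genes passed the test in either direction, as in the whole table. Immediate early genes, which respond first to signals, had a median log2 difference of -1.02 with 7 of 7 tested genes lower in Minnelide tumors. Dusp1, a phosphatase of MAP kinases, averaged 103 ± 40.9 and 55.0 ± 15.4 CPM, and Jund 97.4 ± 34.6 and 53.3 ± 21.2 CPM (SD, n = 4 each). Iron and heme handling had a median of -0.96 with 5 of 5 lower, among them Hmox1, the inducible heme oxygenase, at 121 ± 35.2 and 50.6 ± 35.2 CPM.

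Interferon response genes had a median log2 difference of -0.83 with 7 of 7 lower. Oas2, an antiviral synthase, averaged 59.5 ± 14.2 and 28.4 ± 5.16 CPM without overlap. MHC class II presentation had a median of -0.70 with 6 of 7 lower, and its Ctss averaged 361 ± 46.4 and 246 ± 67.1 CPM without overlap. Complement and Fc receptor genes had -0.50 with 6 of 7 lower, and C1qc averaged 154 ± 95.6 and 73.7 ± 25.9 CPM with overlapping groups. Myeloid transcription factors had -0.49 with 14 of 15 lower, the exception being Runx1 at 881 ± 260 and 946 ± 190 CPM.

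Lysosome genes had a median log2 difference of -0.45 with 14 of 14 lower, and lipid-associated macrophage genes -0.47 with 11 of 11 lower. These medians were -0.17 and -0.16 without untreated tumor 1. Immune checkpoint genes had -0.44 (8 of 9 lower), resident macrophage genes -0.39 (5 of 5) and IL-4 response genes -0.41 (2 of 3). Igf1, a growth factor that muscle macrophages supply, averaged 266 ± 105 and 145 ± 46.7 CPM with overlapping groups, in a list of growth factors with a median of -0.25 (5 of 8 lower). Myeloid receptors and signaling genes had -0.16 (14 of 16), clearance receptors -0.14 (9 of 11), inflammatory cytokines -0.12 (5 of 6) and chemokines -0.07 (2 of 3).

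Positive medians were found in 5 lists. Cell cycle genes had 0.57 with 8 of 8 higher in Minnelide tumors, and 0.09 without untreated tumor 1. CIC::DUX4 activity genes, which are tumor genes, had 0.51 with 12 of 13 higher, and their Vgf averaged 856 ± 274 and 2491 ± 1477 CPM in macrophage nuclei without overlap (SD, n = 4 each). Monocyte genes had 0.59 with 4 of 5 higher, led by Vcan and Fn1, while Itgam averaged 173 ± 40.3 and 97.2 ± 51.6 CPM. RNA polymerase II and TFIIH subunits had 0.17, with 5 of 7 higher, and matrix proteases and inhibitors 0.19, also with 5 of 7.

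**Figure D5:**
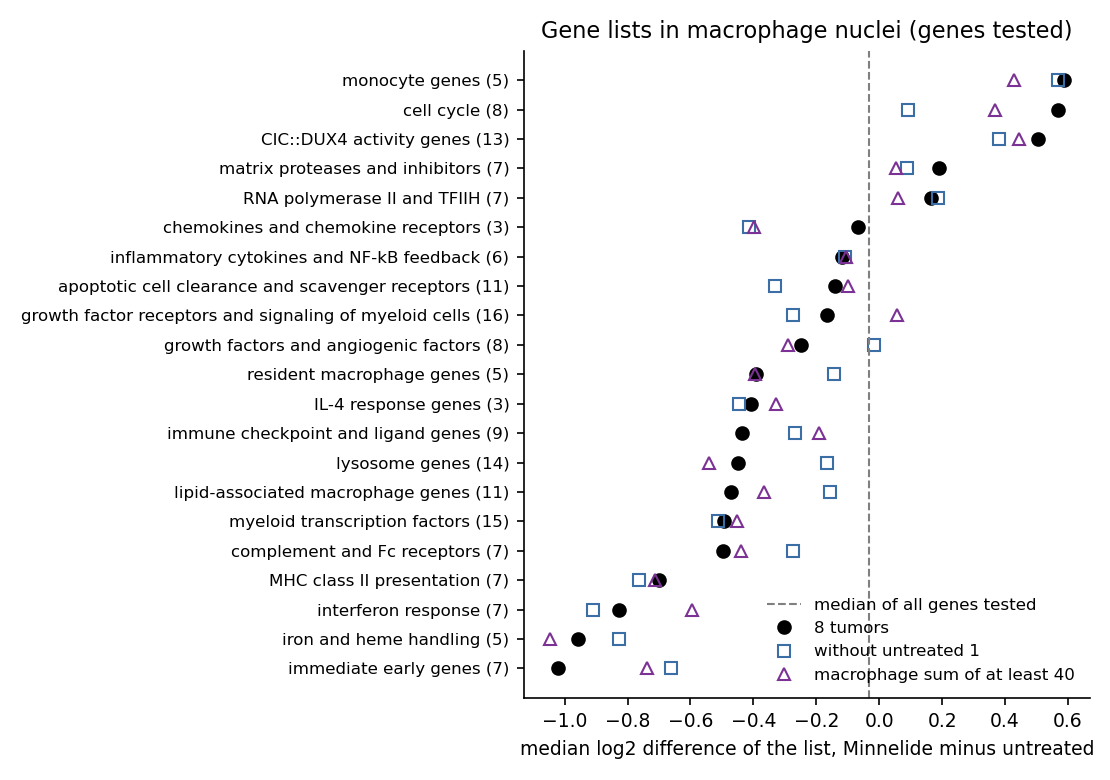
Median log2 difference, Minnelide minus untreated, of 21 gene lists in macrophage nuclei, with the number of genes tested in parentheses; filled circles use all 8 tumors, squares leave out untreated tumor 1 and triangles keep nuclei with a macrophage sum of at least 40. Immediate early genes lie lowest at -1.02 and monocyte genes highest at 0.59, and the dashed line marks all genes at -0.03.

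Whether Minnelide acts differently on macrophage than on other nuclei was tested by the interaction of class and treatment, with the tumor as a block. By edgeR, 0 of 13191 genes (0%) passed an adjusted p of 0.05, and 451 (3.42%) had an unadjusted p below it. Without untreated tumor 1 the count was 1, Ltbp1 (adjusted p of 0.0208), and in nuclei with a macrophage sum of at least 40 it was 1, the chemokine gene Cxcl13 (adjusted p of 0.0137). DESeq2 was not run for this comparison. The 5 genes of smallest p with a more positive difference in macrophage nuclei were Mag, Anxa3, Chd3, Cdk6 and Rnf180, and the 5 with a more negative one were Vcam1, Fosb, Gng2, Mboat1 and Vps45.

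Anxa3, a calcium-dependent phospholipid binder of phagocytes, averaged 102 ± 19.9 CPM in macrophage nuclei of untreated and 195 ± 84.0 CPM in those of Minnelide tumors, with an interaction of 1.16 ± 0.27 on the log2 scale (SE, edgeR, adjusted p of 1). Cdk6, a kinase of the G1 phase, averaged 206 ± 65.3 and 178 ± 53.4 CPM in macrophage nuclei and had a lower level in the other nuclei of all Minnelide tumors than of all untreated tumors. Vcam1 had an interaction of -1.83 ± 0.49, also with an adjusted p of 1. Mag was carried by few UMIs, with at most 16.2 CPM in any tumor.

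Genes of separate macrophage states were counted per nucleus. After thinning to 1000 UMIs, any of the MHC class II genes H2-Aa, H2-Ab1, H2-Eb1 and Cd74 was found in 6.47% to 54.5% of the macrophage nuclei of a tumor, with a median of 35.7%, against a median of 6.48% of the other nuclei. Any of the resident macrophage genes Lyve1, Folr2, Timd4 and Vsig4 was found in 0% to 15.8%, with a median of 4.54% against 0.374%. Of the 1281 nuclei, 365 had the MHC class II genes alone, 104 the resident genes alone, 36 both and 776 neither. Whether the sets of genes exclude each other was not tested.

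The MHC class II share averaged 35.7% ± 16.9 in untreated and 23.2% ± 15.1 in Minnelide tumors (SD, n = 4 each) with overlapping groups. Any of Trem2, Gpnmb and Spp1, genes of lipid-associated macrophages, was found in 5.41% to 36.4% of macrophage nuclei, against a median of 7.23% of the other nuclei. Any cell cycle gene of the list was found in 27.5% to 74.3% of macrophage nuclei and in 27.1% to 76.7% of the other nuclei, so these shares did not stand above the background.

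Clustering of the macrophage nuclei without the 18 genes of the rule gave 10 sub-clusters, numbered by size and described by their leading genes without a test. The adjusted Rand index to this clustering was 0.802 and 0.668 at other resolutions and 0.354 when genes were not centred within tumors, so membership depended on these choices. Sub-cluster 1 held 416 nuclei (32.5%) and was found in every tumor. It was led by Fcrls, Basp1, Osbpl8, Plxnc1 and Igfbp2, each at most 3.1 times the level of the other macrophage nuclei, and its median macrophage sum was 62.6.

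Sub-cluster 6 held 97 nuclei from all 8 tumors, 25 of them from untreated tumor 1. It was led by Gpr141, Ccr2, Htr7, Ciita and Ipcef1. Ccr2, the receptor that brings monocytes into tissue, stood at 550 CPM there and at 31.8 CPM in the remaining macrophage nuclei. Ciita, the master regulator of MHC class II genes, stood at 439 and 28.1 CPM. H2-Aa and Cd74 stood at 477 and 633 CPM in this sub-cluster.

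Sub-cluster 7 held 87 nuclei, 86 of them from untreated tumor 1, with the highest median macrophage sum, 159.6, and a mean tumor marker sum of 20.9. It was led by Wfdc17, Retnla, Ifi27l2a, Fcna and Ccl6, and it held Lyve1, a hyaluronan receptor of resident macrophages, at 1399 CPM against 57.2 CPM in the remaining macrophage nuclei. F13a1 stood at 8765 CPM and Mrc1 at 3424 CPM. Folr2, the folate receptor of resident macrophages, stood at 308 CPM, and Ccr2 at 14.6 CPM.

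Sub-cluster 8 held 77 nuclei, all from untreated tumor 1. It was led by Slc40a1, Spic, Abcg3, Vcam1 and Il18. Slc40a1 encodes the iron exporter ferroportin and stood at 1102 CPM against 49.5 CPM, and Spic, a transcription factor of iron-recycling macrophages, stood at 464 against 28.5 CPM. Vcam1 stood at 1641 against 180 CPM. Its mean tumor marker sum was 25.6, and Lyve1 stood at 21.4 CPM. A group of nuclei from a single tumor may stand for that tumor rather than for a kind of macrophage.

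The other 6 sub-clusters were led by muscle genes, endothelial genes or genes that were not assigned to a cell class. The last holds for sub-clusters 2, 3 and 5. Sub-cluster 2 held 165 nuclei, 163 of them from untreated tumor 1, led by Ablim3, Tox2, Tox3, Nxph1 and Sult5a1, and had a median of 6364 UMIs. Sub-cluster 3 (135 nuclei) was led by Kif26b, Brinp3, Edil3, Chl1 and Pappa, and sub-cluster 5 (100 nuclei) by Car10, Cdh8, Esrrg, Ntng1 and Klhl32, with the highest mean tumor marker sum, 139. Sub-clusters 4 (102 nuclei) and 10 (42 nuclei) were led by muscle genes, Myh1, Mustn1, Myoz1, Cryab and Pygm in the one and Sox6, Dmd, Mlip, Ctnna3 and Mypn in the other. Sub-cluster 9 (60 nuclei) was led by the endothelial genes Sele, Tll1 and Ptprb with Kcnc2 and Selp. By their Scrublet score 111 of the 1281 nuclei were flagged as doublets, of which sub-clusters 2, 3 and 10 held 30, 29 and 19 and sub-clusters 6, 7 and 8 held 0. The number flagged in each tumor was set in advance, so these counts rank nuclei by score and do not measure a doublet rate.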

How the data were processed

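By the authors' methods, nuclei were sequenced with a 10x Genomics 3′ kit with on-chip multiplexing. The authors deposited raw UMI counts per gene and nucleus as 8 filtered matrices of 19059 features on mm39. CPM and detection are relative to these features. They lack abundant RNAs such as Malat1 and those of ribosomal proteins, although a 3′ kit is named. The reason was not tested. The submitters' processing notes name bcl2fastq 2.20 and Cell Ranger 7.0.1, while the file headers give Cell Ranger 9.0.1. Each matrix was taken as 1 tumor and numbered in file order, which pairs no tumors.

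Nuclei were kept at 1000 UMIs or more and under 5% mitochondrial UMIs. Doublets were the nuclei with the highest Scrublet scores of a tumor (scanpy 1.11.5), their number set in advance at 0.8% per 1000 deposited nuclei. They were kept and removed only in an alternative. The members and the gene lists were chosen with earlier results of these data known.

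UMIs of macrophage nuclei were summed per tumor and tested with edgeR 4.0.16 (R 4.3.3; TMM, filterByExpr, quasi-likelihood test, Benjamini-Hochberg over all genes tested), with DESeq2 1.42.0 as an alternative. An interaction fit set macrophage against other nuclei with the tumor as a block. Shares and medians were compared by exact permutation of the 8 tumors (scipy 1.17.1). CPM used sums per tumor, and log2 ratios used a pseudocount of 10 CPM. Detection was compared after thinning to 1000 UMIs. Sub-clusters used Leiden clustering (igraph, by modularity) at resolution 0.5. The edgeR steps were tested on simulated data. For Minnelide against untreated macrophage nuclei, 10% of 200 genes changed 2-fold were recovered, and 97% of 200 genes changed 4-fold. False calls numbered 1 and 9.

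Named genes were those of the rule and markers, the 20 with the highest median ratio at 50 CPM or more, the 10 higher and 10 lower with the smallest p, up to 4 by level and 2 by p per list, 5 per sub-cluster, and 5 per direction of the interaction. Cxcl13, Lyve1, Folr2, single markers of other cell classes and the ligands in the other nuclei lie outside this rule and were named after their values were seen. Other thresholds of the rule, normalizations, filters and sets of nuclei were tried, and each tumor was left out in turn. Sequences came from RefSeq promoters on GRCm38.p6 and were joined to the files by symbol only. Other coordinates are those of GENCODE M39 on GRCm39. Some genes that the rule names are not reported here.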

Additional observations from a re-analysis of the deposited data

Results flagged for a closer look

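In groups of 4 tumors, a tumor far from the other 3 was looked for by Dixon's criterion in 122 groups of values, and 11 held one. Chance gives about 1 in 20 groups. The share of macrophage nuclei in untreated tumor 1, 7.43%, was far above the next untreated tumor at 1.04%. The median number of genes at 1000 UMIs in Minnelide tumor 2, 779.5, was below the nearest value, 803.

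Among the genes of the rule, Cd68 stood at 14.1 CPM in Minnelide tumor 2 against 34.6 CPM in the nearest tumor of its group. Nyap2 stood at 17.7 CPM in untreated tumor 3 against 1.42 CPM, and Ocstamp at 6.46 CPM in Minnelide tumor 3, where the other Minnelide tumors were at 0. The flagged values of Cd68, Nyap2 and Ocstamp rested on only 7, 3 and 2 UMIs. Among the leading genes, Fcgr2b stood at 181 CPM in untreated tumor 1, below the next value of 288 CPM, and Plek at 369 CPM in Minnelide tumor 2, above the next value of 192 CPM.

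Among the genes named for the comparison of the groups, Adgrl1 stood at 60.8 CPM in untreated tumor 4 against 28.0 CPM in the nearest untreated tumor. Btg2 stood at 60.5 CPM in Minnelide tumor 4 against 36.3 CPM, Tiparp at 74.7 CPM in Minnelide tumor 2 against 39.9 CPM, and Vcam1 at 74.3 CPM in Minnelide tumor 3 against 17.3 CPM in the nearest Minnelide tumor. The flagged values of Adgrl1, Btg2, Tiparp and Vcam1 rested on 4, 7, 37 and 23 UMIs.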

How the results depend on the processing

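The difference in share of macrophage nuclei lay between -3.11 and -0.623 percentage points under 11 other thresholds and sets (exact permutation p of 0.343 to 0.943). With each tumor left out in turn it ran from -1.87 to 0.370, positive without untreated tumor 1. The difference in median UMIs ran from -316 to 425 with a tumor left out, negative without untreated tumor 4 (-316) and without Minnelide tumor 1 (-122). That in genes at 1000 UMIs was -1 in the main analysis, 6.38 at a macrophage sum of at least 40, and between -3.71 and 5.04 with a tumor left out, positive without untreated tumor 1 (3.13) and without Minnelide tumor 2 (5.04). None of these passed a test, and the cause of each sign was not tested.

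In edgeR 0 genes were called for Minnelide against untreated tumors in each of the 16 alternatives, where 79 to 1182 genes outside the rule had an unadjusted p below 0.05. DESeq2 called 3. In the interaction, 0 to 1 genes were called with a tumor left out, the 1 being Ltbp1 without untreated tumor 1, and 1 gene, Cxcl13, with nuclei of a second class removed and, chosen after seeing the data, at a macrophage sum of at least 40. Among values of named genes in the alternatives, 383 kept direction and side of the threshold, and the other 3 passed it in DESeq2 (Mdk 2.64, Ltbp1 2.07 and Ptchd4 2.23 on the log2 scale). Some list medians changed sign in an alternative: receptors and signaling genes, complement, IL-4 response, chemokines, checkpoint, growth factors and proteases. Sub-clusters numbered 8 to 13, with adjusted Rand indices of 0.354 to 0.802. No paired analysis was possible because the labels number no tumors. Depth limits the tumors with 35 to 60 macrophage nuclei most.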

Other observations

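Ligands and signals for macrophages were measured in the nuclei under both thresholds and are given as values without a test. Cx3cl1, the ligand of the receptor CX3CR1, averaged 44.9 ± 21.6 CPM in untreated and 30.5 ± 20.2 CPM in Minnelide tumors (SD, n = 4 each). Ccl2, which draws monocytes through CCR2, averaged 5.06 ± 4.81 and 2.00 ± 0.761 CPM. Tgfb1 averaged 67.5 ± 3.65 and 47.1 ± 9.45 CPM, and Cd47, the signal against phagocytosis that is read by the receptor SIRPA, 148 ± 60.8 and 117 ± 22.4 CPM.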
